A study of Mus musculus with 9 samples.

Results

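The synaptic vesicle release machinery was taken as 29 genes, chosen by symbol. All 29 were found among the 55335 rows of the deposited count table and among the 21765 genes with enough reads to be tested. RNA was sequenced from the prelimbic cortex (PrL, part of the medial prefrontal cortex and involved in pain control) of 9 mice on day 14 after surgery, 3 mice in each of 3 groups. The R-HNK group had a spared nerve injury and received R-HNK at 10 mg/kg, the R-HNK being (2R,6R)-hydroxynorketamine, a metabolite of ketamine. The SNI group had the same spared nerve injury, in which some branches of the sciatic nerve are cut and another is left intact, and received saline. The Sham group had sham surgery and received saline. The injury was thus shared by the R-HNK and SNI groups, and no Sham mice received R-HNK. Strain, sex, age and the time of dosing were not given in the labels, and separate animals are implied only by the titles' replicate numbers. The tissue was dissected in bulk, so fewer cells of a type and less RNA per cell cannot be told apart.

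Neurons release transmitter when calcium enters a presynaptic bouton and vesicles fuse with its membrane. The SNARE proteins on vesicle and plasma membrane zip together to drive the fusion, complexins and synaptotagmins hold and trigger it, and the active zone scaffold docks and primes vesicles beside calcium channels. Synapsins tether the reserve of vesicles, and vesicular glutamate transporters fill them, VGLUT1 in most cortical pyramidal neurons and VGLUT2 mainly in thalamic and other subcortical neurons.

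The stretches before the transcription start were searched for sites of factors known to act on neuronal genes, to show which members share them. The window was the 250 bases before each RefSeq start on GRCm38.p6, on both strands, and 22 of the 29 genes had an entry, with 32 starts among them. The letters searched were TGACGTCA (the cyclic AMP response element, CRE), GCGTGGGCG and GCGGGGGCG (EGR sites) and TTCAGCACC (the left part of RE1, the element of the repressor REST). The share of all 32851 RefSeq windows that hold them is 1.55% for CRE, 0.536% and 2.57% for the EGR sites and 0.301% for the RE1 part. Among the 32 windows of the release genes, 1 held the CRE and the RE1 part (Syn1), 1 held the first EGR site (Unc13a, on the opposite strand) and 2 held the second (Syn2 and Syngr1). Matches are in capitals, read 5′ to 3′ on the strand of the gene, and none overlapped another. They start at -159 (CRE) and -232 (RE1 part) in Syn1, -41 in Syn2, -11 in Syngr1 and -25 in Unc13a, counted back from the RefSeq start. Only bases outside the GENCODE gene are printed, which are chrX:20921005-20921168 (minus strand), chr6:115134652-115134901 (plus), chr15:80091084-80091333 (plus) and chr8:71671758-71672007 (minus). The 4 shown are the windows of members that held a match, which describes letters and not binding.
Syn1: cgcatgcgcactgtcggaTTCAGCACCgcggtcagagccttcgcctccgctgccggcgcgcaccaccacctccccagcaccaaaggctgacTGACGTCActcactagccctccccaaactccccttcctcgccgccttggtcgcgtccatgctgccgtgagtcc
Syn2: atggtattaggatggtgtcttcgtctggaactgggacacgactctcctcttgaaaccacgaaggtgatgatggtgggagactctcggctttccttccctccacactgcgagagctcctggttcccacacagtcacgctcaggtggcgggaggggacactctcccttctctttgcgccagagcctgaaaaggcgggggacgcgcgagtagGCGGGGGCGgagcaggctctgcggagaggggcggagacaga
Syngr1: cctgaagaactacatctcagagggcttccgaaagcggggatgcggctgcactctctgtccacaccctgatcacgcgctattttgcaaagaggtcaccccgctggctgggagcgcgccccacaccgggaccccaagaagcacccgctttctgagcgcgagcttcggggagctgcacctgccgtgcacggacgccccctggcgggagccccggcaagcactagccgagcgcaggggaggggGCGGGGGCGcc
Unc13a: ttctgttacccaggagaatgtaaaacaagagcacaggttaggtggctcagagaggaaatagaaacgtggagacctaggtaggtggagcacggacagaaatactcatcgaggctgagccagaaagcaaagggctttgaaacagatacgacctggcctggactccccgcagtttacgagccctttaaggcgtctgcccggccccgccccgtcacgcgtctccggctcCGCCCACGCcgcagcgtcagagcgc

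The libraries held 53624337 to 73586375 counts each. Markers of striatal medium spiny neurons, which lie outside the cortex, were raised in 4 libraries, R-HNK 1 and 3 and Sham 2 and 3. The summed level of the 15 markers was 628 to 1645 CPM (counts scaled to a common library total, edgeR's cpm) in R-HNK mice, 613 to 665 CPM in SNI mice and 645 to 2544 CPM in Sham mice. Adora2a, an adenosine receptor of these cells, measured 23.0, 2.04 and 40.6 CPM in R-HNK mice 1, 2 and 3, 2.57, 1.45 and 2.55 CPM in SNI mice and 1.88, 62.6 and 69.2 CPM in Sham mice, and Six3, a transcription factor of the same cells, was at 0 in R-HNK 2, SNI 1 and SNI 3. The summed level of 8 markers of cortical excitatory neurons ran from 4813 to 5320 CPM in R-HNK mice, 5312 to 5918 CPM in SNI mice and 4335 to 5648 CPM in Sham mice. Camk2a made up most of that sum, and in SNI against Sham mice 8 of 8 of these markers had a higher mean, with a median log2 fold change of 0.40 (0.075 with the covariate described below), and Neurod6, a transcription factor of pyramidal neurons, rose by 0.70 (edgeR adjusted p = 0.00901). For 7 oligodendrocyte markers the sums were 3297 to 6407 CPM in R-HNK mice, 3170 to 4472 CPM in SNI mice and 3172 to 6631 CPM in Sham mice. Markers of septal and olfactory neurons (6 genes) summed to 59.5 to 74.3 CPM in R-HNK mice, 25.6 to 48.7 CPM in SNI mice and 99.2 to 119 CPM in Sham mice, and thalamic markers (5 genes) to 42.1 to 49.7 CPM in R-HNK mice, 30.5 to 41.0 CPM in SNI mice and 63.6 to 78.7 CPM in Sham mice. Meningeal fibroblast markers (6 genes) summed to 31.6 to 45.9 CPM in R-HNK mice, 23.2 to 28.0 CPM in SNI mice and 37.4 to 58.2 CPM in Sham mice. In SNI against Sham mice the median log2 fold change was -1.86 for the septal and olfactory list (3 called lower; -2.35 with the striatal covariate), -1.035 for the thalamic list (1 called lower; 0.010 with the covariate) and -1.02 for the meningeal list (2 called lower; -0.93 with the covariate). The septal and olfactory sums and the thalamic sums did not overlap between any 2 groups and so cannot be told apart from the groups, and the part of these lists in the results was not tested. Each comparison below was fitted again in 2 ways, with a covariate for the striatal markers (their mean log2 CPM) and without the 4 libraries. The fit without them leaves 1 R-HNK, 3 SNI and 1 Sham library, and its spread comes from the SNI mice alone.

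Every release gene was expressed in every library, the lowest count being 566 reads for Syt2 in R-HNK 1. Levels were set against each other per kilobase of exon (the union of the exons of a gene in GENCODE M21). VGLUT1, encoded by Slc17a7, stood first at 342 CPM per kilobase over the 9 libraries. It was followed by Snap25 (321), a plasma membrane SNARE protein, Syp (295), the vesicle protein synaptophysin, Vamp2 (286), the main vesicle SNARE protein, and Rab3a (267), a vesicle GTPase. At the low end stood Syn3 (1.09), Slc17a6 (2.47), which encodes VGLUT2, Unc13b (3.30), Syt2 (4.28) and Doc2b (7.72). Related genes differed in level per length. Slc17a7 stood over Slc17a6, Syt1 (198) over Syt2, Vamp2 over Vamp1 (10.3), and Unc13a (42.4) over Unc13b, whereas Cplx2 (264) and Cplx1 (254) stood close together. The 7 active zone genes ran from Bsn (46.6) down to Unc13b.

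**Figure D1:**
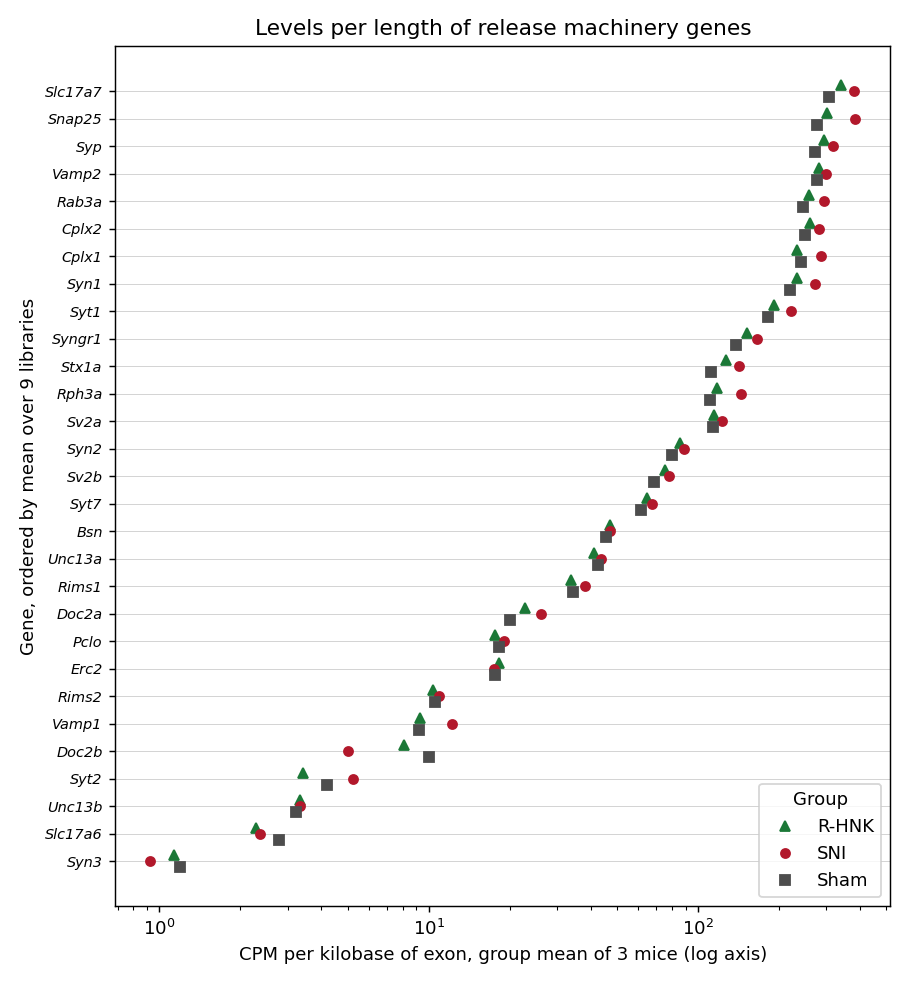
Group means (3 mice each) of CPM per kilobase of exon for the 29 release machinery genes on a log axis, ordered by the mean over 9 libraries. Levels run from 1.09 (Syn3) to 342 (Slc17a7) CPM per kilobase, and the 3 group symbols of a gene lie close together next to this range.

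The release genes together took 1.75%, 1.86% and 1.70% of the counts in R-HNK mice 1, 2 and 3, 1.89%, 1.95% and 1.97% in SNI mice, and 1.84%, 1.65% and 1.56% in Sham mice. All 3 SNI shares lay above those of the other 6 libraries, and Sham 1, the one Sham library without raised striatal markers, lay closest to them after R-HNK 2. Of the 29 genes, 16 were lowest of all 9 libraries in Sham 3, and 13 were highest in SNI 3 and 7 in SNI 1. By group mean, 19 genes stood in the order SNI, R-HNK, Sham from high to low. In 6 genes the order was SNI, Sham, R-HNK (Cplx1, Syt2, Unc13a, Rims1, Rims2 and Pclo). Doc2b and Syn3 stood in the order Sham, R-HNK, SNI, Slc17a6 in the order Sham, SNI, R-HNK, and Erc2 in the order R-HNK, Sham, SNI. The within-group spread was smallest for Sv2a (a pooled SD of 0.0468 on the log2 CPM scale) and largest for Syt2 (0.776) and Doc2b (0.538).

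**Figure D2:**
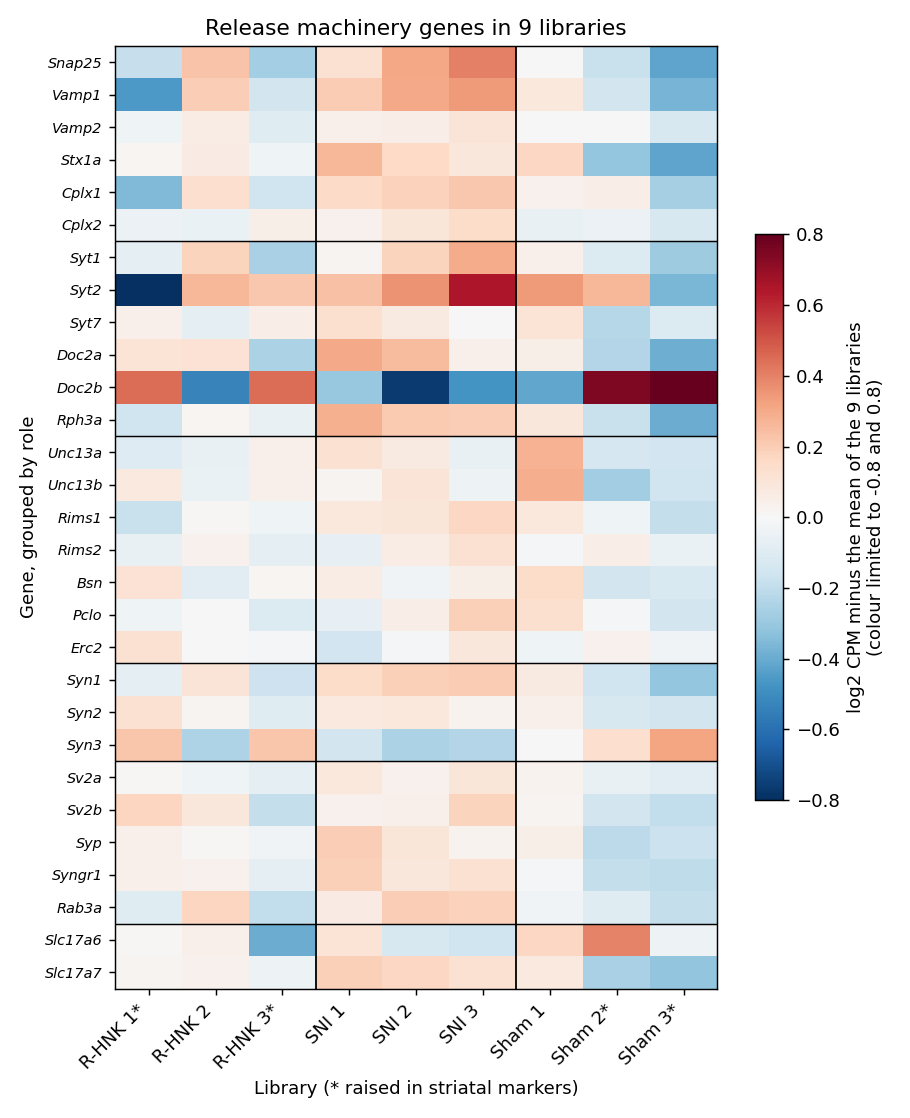
Log2 CPM of each release gene minus its mean over the 9 libraries, with genes in rows grouped by role and libraries in columns (asterisks mark the 4 libraries raised in striatal markers). The SNI columns are mostly red, Sham 3 is lowest for 16 genes, and Doc2b and Syn3 are red in the 4 marked libraries.

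The first comparison, SNI against Sham mice, asks what nerve injury did to these transcripts under saline. Most release genes had a higher mean in SNI mice by a small amount, and none passed the test. By edgeR's quasi-likelihood test with Benjamini-Hochberg adjustment over all 21765 genes, 0 of 29 had an adjusted p under 0.05, where 1.07% of all genes did. DESeq2, another count model, called 6 of the 29, Snap25, Doc2a, Rph3a, Syn1, Syngr1 and Slc17a7, with adjusted p of 0.00989 to 0.0489. It called 6.76% of the 17532 genes that it gave an adjusted p. At an unadjusted p under 0.05 there were 12 higher and 2 lower, where 7.52% and 9.07% of all genes were. The groups did not overlap for 12 genes that were higher and 1 that was lower, against 10.9% of all genes in each direction. Scaled by library totals alone, 9 were higher and 1 lower without overlap, against 8.05% and 13.7% of all genes. The fold change was above 0 for 25 of 29 release genes, against 47.6% of all genes. The median log2 fold change of the 29 was 0.17, against -0.016 over all genes and 0.030 over the 9553 genes at or above the mean level of the lowest release gene. Among those 9553 genes 57.6% had a fold change above 0, 13.5% were higher and 9.15% lower at an unadjusted p under 0.05, and 17.6% were higher and 9.77% lower without overlap. The median was 0.051 with the striatal covariate, where 21 of 29 lay above 0, and 0.069 without the 4 libraries. Without Sham replicate 1, 7 of the 29 passed (Stx1a, Doc2a, Rph3a, Syn1, Syp, Syngr1 and Slc17a7), where 5.19% of all genes did. The Sham libraries left in that fit, Sham 2 and 3, are both raised in striatal markers. Without R-HNK replicate 2 Snap25 passed, where 1.61% of all genes did. The values below are log2 fold changes ± SE unless CPM is named.

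Among the 6 SNARE genes and their regulators the median log2 fold change was 0.29, with 6 of 6 above 0 and 5 without overlap. The median was 0.10 with the striatal covariate, still with 6 of 6 above 0. Snap25 measured 1888, 2508 and 1774 CPM in R-HNK mice 1, 2 and 3, against 2337, 2657 and 2835 CPM in SNI mice and 2137, 1894 and 1599 CPM in Sham mice. Each SNI mouse lay above each Sham mouse, and R-HNK 2 lay among the SNI mice. The mean of Snap25 (gene body chr2:136713453-136782428, plus strand, GRCm38) was 2609 ± 252 CPM in SNI mice and 1877 ± 269.7 CPM in Sham mice (SD, n = 3 each), a log2 fold change of 0.48 ± 0.14 (SE; edgeR adjusted p = 0.132). With the striatal covariate it was 0.18. Vamp1, the vesicle SNARE of fast-firing neurons, had 0.41 ± 0.16 (edgeR adjusted p = 0.230). Its more abundant relative Vamp2 had 0.11 ± 0.066 (adjusted p = 0.440), and neither overlapped between groups. Stx1a, syntaxin 1A of the plasma membrane, had 0.34 ± 0.12 but overlapped, since Sham 1 at 376 CPM lay above SNI 2 and SNI 3. The complexins Cplx1 and Cplx2, which clamp the SNARE bundle, had 0.24 ± 0.11 and 0.17 ± 0.063 without overlap. With the covariate Cplx2 had 0.19, while Cplx1 had 0.056, Vamp1 0.12, Vamp2 0.037 and Stx1a 0.090.

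The 6 calcium sensors and related effectors had a median of 0.30, with 5 of 6 above 0. With the covariate their median was 0.052, with 4 of 6 above 0. Rph3a measured 512, 578 and 550.3 CPM in R-HNK mice 1, 2 and 3, against 698, 663 and 656 CPM in SNI mice and 609, 505 and 434 CPM in Sham mice. Rph3a encodes rabphilin, an effector of Rab3 on vesicles (gene body chr5:120940499-121010092, minus strand). The SNI mice lay above all 6 other libraries, and Sham 1 was highest of those. Rph3a averaged 672 ± 22.5 CPM in SNI mice and 516 ± 87.9 CPM in Sham mice (SD, n = 3 each), a log2 fold change of 0.38 ± 0.10 (SE; edgeR adjusted p = 0.0916), the smallest adjusted p of the 29. With the covariate it was 0.19. Syt1, the main calcium sensor of fast release, had 1666, 1857 and 2014 CPM in SNI mice and 1686, 1518 and 1345 CPM in Sham mice, which overlapped at Sham 1 (log2 fold change 0.28 ± 0.11, edgeR adjusted p = 0.240). Doc2a, a high-affinity sensor of spontaneous and asynchronous release, had 0.38 ± 0.13 (adjusted p = 0.158), with Sham 1 just above SNI 3. Syt7, a slow sensor, had 0.14 ± 0.084. Syt2 had 0.31 ± 0.55 with overlap (edgeR adjusted p = 0.831), and -0.0033 with the covariate.

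The 7 active zone genes had a median of 0.055 and ranged from -0.013 (Erc2) to 0.16 (Rims1), and all 7 overlapped between SNI and Sham mice. The direction of this role depended on the fit, since 6 of 7 lay above 0 here but 3 of 7 with the covariate (median -0.018) and 3 of 7 without the 4 libraries (median -0.059). Bsn measured 802, 697 and 751 CPM in R-HNK mice 1, 2 and 3, against 773, 727 and 765 CPM in SNI mice and 822, 670.1 and 681 CPM in Sham mice. Bsn encodes bassoon, a giant scaffold protein, and Sham 1 was its highest library. Its log2 fold change was 0.060 ± 0.085 (SE; edgeR adjusted p = 0.775), and -0.018 with the covariate. The related scaffold Pclo (piccolo) had 0.070 ± 0.084, the priming factors Unc13a and Unc13b (Munc13 proteins) 0.038 ± 0.10 and 0.055 ± 0.12, and the docking proteins Rims1 and Rims2 0.16 ± 0.079 and 0.042 ± 0.068.

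The synapsins differed in direction. Syn1 measured 749, 852 and 707 CPM in R-HNK mice 1, 2 and 3, against 877, 904 and 912 CPM in SNI mice and 833, 709 and 639 CPM in Sham mice. The SNI mice were highest and did not overlap with the Sham mice, while Sham 1 was close below them. Syn1 had a log2 fold change of 0.30 ± 0.095 (SE; edgeR adjusted p = 0.139), and 0.089 with the covariate. Syn2 had 0.14 ± 0.074 (adjusted p = 0.373) with overlap at Sham 1. Syn3, the least abundant synapsin, is described below with Doc2b.

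Of the 5 vesicle membrane genes all had a higher mean in SNI mice (median 0.22, and 0.081 with the covariate), and 4 did not overlap. Syngr1 measured 749, 746 and 693 CPM in R-HNK mice 1, 2 and 3, against 833, 777 and 792 CPM in SNI mice and 725, 640.2 and 633 CPM in Sham mice. Syngr1 encodes synaptogyrin, a relative of synaptophysin, and all 3 SNI mice lay above the other 6 libraries. It averaged 800.3 ± 28.9 CPM in SNI mice and 666 ± 51.1 CPM in Sham mice (SD, n = 3 each), a log2 fold change of 0.27 ± 0.071 (SE; edgeR adjusted p = 0.0917), and 0.16 with the covariate. Syp had 1752, 1635 and 1562 CPM in SNI mice and 1579, 1324 and 1355 CPM in Sham mice, with Sham 1 above SNI 3 (log2 fold change 0.22 ± 0.078, edgeR adjusted p = 0.188). Rab3a had 0.25 ± 0.090 (adjusted p = 0.187). The glycoproteins Sv2a and Sv2b, of which Sv2a binds the antiepileptic drug levetiracetam, had 0.11 ± 0.061 and 0.19 ± 0.094.

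The means of the transporters differed in direction. Slc17a7 measured 1862, 1881 and 1780.2 CPM in R-HNK mice 1, 2 and 3, against 2089, 2060.4 and 1992 CPM in SNI mice and 1936, 1535 and 1477 CPM in Sham mice. Sham 2 and 3 were low, and Sham 1 lay close below the SNI mice. Slc17a7 averaged 2047 ± 50.0 CPM in SNI mice and 1649 ± 250.3 CPM in Sham mice (SD, n = 3 each), a log2 fold change of 0.31 ± 0.091 (SE; edgeR adjusted p = 0.116), and 0.14 with the covariate. Slc17a6 measured 13.3, 13.6 and 10.0 CPM in R-HNK mice 1, 2 and 3, against 14.2, 12.1 and 11.8 CPM in SNI mice and 14.8, 17.4 and 12.9 CPM in Sham mice. These overlapped (log2 fold change of SNI against Sham -0.24 ± 0.15, edgeR adjusted p = 0.442), and the value with the covariate was -0.33.

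**Figure D3:**
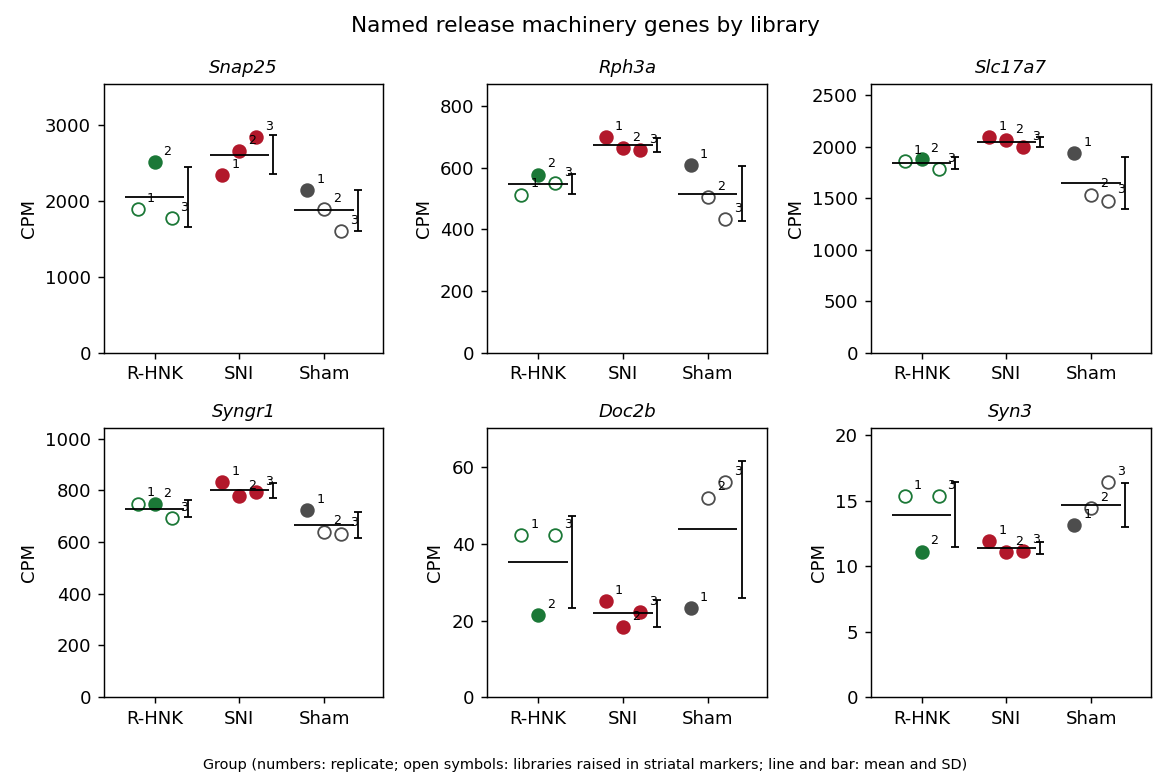
CPM of Snap25, Rph3a, Slc17a7, Syngr1, Doc2b and Syn3 in each library, by group, with the mean (line) and SD (bar) of 3 mice and open symbols for the 4 libraries raised in striatal markers. In the first 4 genes the SNI mice lie above every Sham mouse, and in Doc2b and Syn3 the open symbols lie above the filled ones.

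Doc2b and Syn3 were the release genes that stood lower in SNI mice with the smallest p. Doc2b measured 42.2, 21.5 and 42.4 CPM in R-HNK mice 1, 2 and 3, against 25.1, 18.2 and 22.3 CPM in SNI mice and 23.3, 52.1 and 56.2 CPM in Sham mice. Doc2b (gene body chr11:75768966-75796049, minus strand) encodes a calcium sensor related to Doc2a. Its 4 high libraries were R-HNK 1 and 3 and Sham 2 and 3, the 4 raised in striatal markers, and Sham 1 lay among the SNI mice. The mean was 21.8 ± 3.47 CPM in SNI mice and 43.9 ± 17.9 CPM in Sham mice (SD, n = 3 each), a log2 fold change of -1.005 ± 0.40 (SE; edgeR adjusted p = 0.283), and -0.0081 with the covariate. Syn3 measured 15.4, 11.1 and 15.4 CPM in R-HNK mice 1, 2 and 3, against 11.9, 11.1 and 11.2 CPM in SNI mice and 13.1, 14.4 and 16.4 CPM in Sham mice. The same 4 libraries were the highest, and SNI and Sham mice did not overlap. Syn3 had a log2 fold change of -0.37 ± 0.14 (SE; edgeR adjusted p = 0.204), and -0.096 with the covariate. Against SNI, R-HNK mice had 0.69 ± 0.40 for Doc2b (edgeR adjusted p = 0.725) and 0.29 ± 0.14 for Syn3 (adjusted p = 0.675), with overlap in both. Without the 4 libraries these were -0.031 and -0.039.

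The second comparison, R-HNK against SNI mice, asks what the drug did in injured mice. Most release genes had a lower mean in R-HNK mice, and none passed the test. Of 29, 0 had an edgeR adjusted p under 0.05, where 0.119% of all genes did, and DESeq2 also called 0, where it called 0.644% of all genes. At an unadjusted p under 0.05 there were 0 higher and 6 lower, where 4.2% and 3.26% of all genes were. The 6 were Rph3a, Cplx1, Vamp1, Snap25, Syn1 and Rims1. The groups did not overlap for 9 genes, all lower in R-HNK mice, against 6.59% of all genes in that direction. Scaled by library totals alone, 5 did not overlap, against 4.57% of all genes, and 5 of the 29 had a higher mean in R-HNK mice. The fold change was above 0 for 3 of 29, against 51.4% of all genes, with a median of -0.11 against 0.0070 over all genes. Among the 9553 genes at or above the level of the lowest release gene the median was -0.022, 42.3% had a fold change above 0, 5.33% were lower at an unadjusted p under 0.05 and 9.38% were lower without overlap. With the covariate the median was -0.040 and 11 of the 29 lay above 0. Without the 4 libraries it was -0.088, with 5 above 0. The SNI mice are in both this comparison and the first, so that a high value in them moves the 2 in opposite directions.

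By role, the medians of R-HNK against SNI were -0.23 for the SNARE genes, -0.21 for the calcium sensors, -0.073 for the active zone, -0.046 for the synapsins, -0.10 for the vesicle membrane and -0.10 for the transporters. With the covariate the active zone median was 0.034 (4 of 7 above 0) and that of the synapsins 0.020 (2 of 3 above 0). Rph3a averaged 547 ± 32.8 CPM in R-HNK mice and 672 ± 22.5 CPM in SNI mice (SD, n = 3 each), a log2 fold change of -0.30 ± 0.10 (SE; edgeR adjusted p = 0.553) without overlap. For Snap25, whose R-HNK 2 lay above SNI 1, the value was -0.34 ± 0.14 (adjusted p = 0.626). Cplx1 measured 432, 605 and 493 CPM in R-HNK mice 1, 2 and 3, against 613, 626 and 641 CPM in SNI mice and 563, 573 and 457 CPM in Sham mice. All 3 R-HNK mice lay below the SNI mice, R-HNK 2 only just (log2 fold change -0.30 ± 0.11, edgeR adjusted p = 0.613). Vamp1 measured 74.4, 117 and 92.7 CPM in R-HNK mice 1, 2 and 3, against 118, 126 and 129.5 CPM in SNI mice and 109, 92.7 and 79.2 CPM in Sham mice. Here too R-HNK 2 was just below SNI 1 and R-HNK 1 was the lowest of all 9 libraries (log2 fold change -0.39 ± 0.16, edgeR adjusted p = 0.626). With the covariate these 4 were -0.16 (Rph3a), -0.16 (Snap25), -0.18 (Cplx1) and -0.20 (Vamp1).

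The most abundant gene per length of each role other than SNARE, and the remaining genes without overlap, had smaller values in R-HNK against SNI mice. Syn1 had -0.22 ± 0.095 (SE; edgeR adjusted p = 0.641) and did not overlap. Slc17a7 had -0.15 ± 0.091 (adjusted p = 0.714), and its R-HNK mice, 1862, 1881 and 1780.2 CPM, all lay below the SNI mice. Syngr1 (-0.13 ± 0.071), Sv2a (-0.10 ± 0.061), Stx1a (-0.16 ± 0.12) and Rims1 (-0.18 ± 0.079) also had no overlap. Syt1 (-0.21 ± 0.11), Syp (-0.10 ± 0.078) and Bsn (-0.0096 ± 0.085) overlapped, with edgeR adjusted p = 0.702, 0.783 and 0.989.

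The third comparison, R-HNK against Sham mice, sets injured and treated mice against uninjured ones, and no release gene passed the test. Of 29, 0 passed by edgeR, where 0.00459% of all genes did, and 0 passed by DESeq2, where 0.046% of all genes did. At an unadjusted p under 0.05 there were 0 of 29, where 3.53% of all genes were, and all 29 overlapped between groups, where 8.85% of all genes did not. Without Sham replicate 1, 13 of the 29 did not overlap, against 24.9% of all genes. There were 20 fold changes above 0 and 9 below, where 48.3% of all genes lay above 0, with a median of 0.050. Among the 9553 genes at or above the level of the lowest release gene the median was 0.0048 and 52.1% lay above 0. The median of the 29 was 0.012 with the covariate, where 18 lay above 0, and -0.035 without the 4 libraries. It was 0.15 without Sham replicate 1, which leaves Sham 2 and 3, both raised in striatal markers. The members with the smallest p were Slc17a6 (-0.29 ± 0.15), Syngr1 (0.13 ± 0.071), Slc17a7 (0.16 ± 0.091), Syp (0.11 ± 0.078) and Sv2b (0.14 ± 0.094), and Doc2b had -0.31 ± 0.40, all with an edgeR adjusted p of 1.00. For the most abundant gene of each of the other roles the values were 0.13 ± 0.14 (Snap25), 0.072 ± 0.11 (Syt1), 0.050 ± 0.085 (Bsn) and 0.081 ± 0.095 (Syn1). In the test of any difference among the 3 groups 0 of 29 passed, where 0.381% of all genes did. DESeq2 called 3 there, beside 4.07% of the 16690 genes that it gave an adjusted p.

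**Figure D4:**
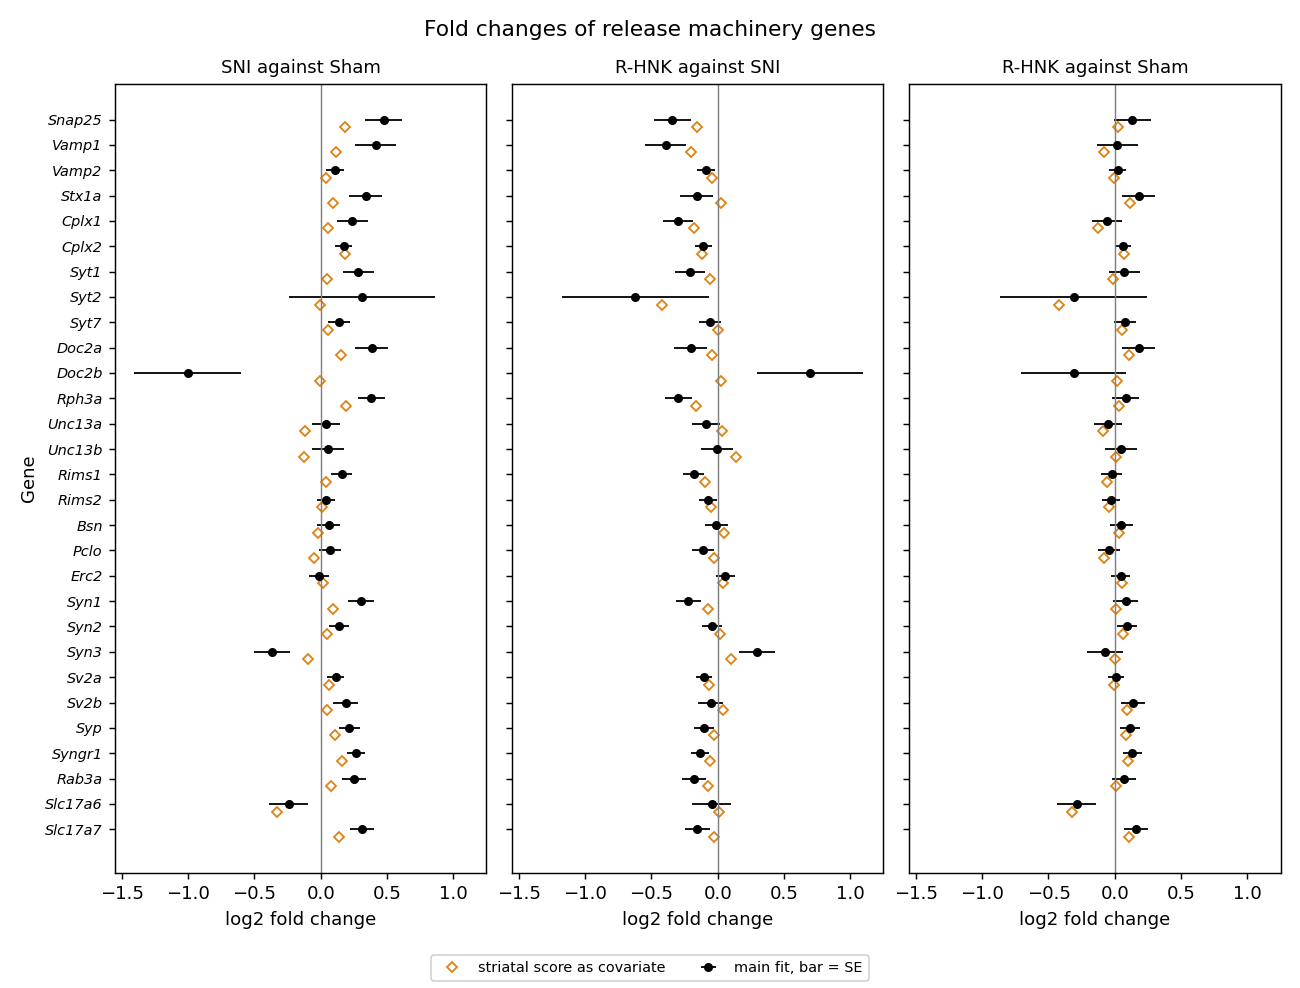
Log2 fold changes of the 29 release genes in SNI against Sham, R-HNK against SNI and R-HNK against Sham mice (points, with bars of 1 SE) and the same with the striatal marker score as a covariate (open diamonds). The points lie mostly right of 0 in the first panel (25 of 29) and left of 0 in the second (26 of 29), and most diamonds in these panels lie nearer 0 than the points.

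Syt2, the fast calcium sensor of parvalbumin interneurons and other fast-firing neurons, was singled out after its values were seen. Syt2 measured 7.64, 35.8 and 34.6 CPM in R-HNK mice 1, 2 and 3, against 34.96, 38.1 and 46.7 CPM in SNI mice and 37.7, 35.8 and 23.0 CPM in Sham mice. R-HNK 1 stood apart from the other 8 libraries, and those overlapped between groups. Its 566 counts gave a level 3.01-fold below the next lowest library, Sham 3, a gap of 1.59 on the log2 scale that ranked 2 among the 15725 genes with a mean log2 CPM above 0. Without it the R-HNK mean was 35.2 CPM. Syt2 (gene body chr1:134646677-134762593, plus strand) had log2 fold changes of -0.62 ± 0.56 against SNI and -0.31 ± 0.56 against Sham (SE; edgeR adjusted p = 0.831 and 1.00). Vamp1 and Cplx1, also abundant in fast-firing neurons, were lowest in R-HNK 1 as well. Pvalb, the calcium buffer parvalbumin that defines those interneurons, measured 20.04, 33.9 and 25.7 CPM in R-HNK mice, 35.5, 42.4 and 38.2 CPM in SNI mice and 29.4, 22.8 and 16.0 CPM in Sham mice, and it was lowest in Sham 3 and not in R-HNK 1. The 6 markers of these interneurons summed to 348 to 414 CPM in R-HNK mice, 420 to 440 CPM in SNI mice and 331 to 427 CPM in Sham mice. Their part in the values of Syt2, Vamp1 and Cplx1 was not tested.

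**Figure D5:**
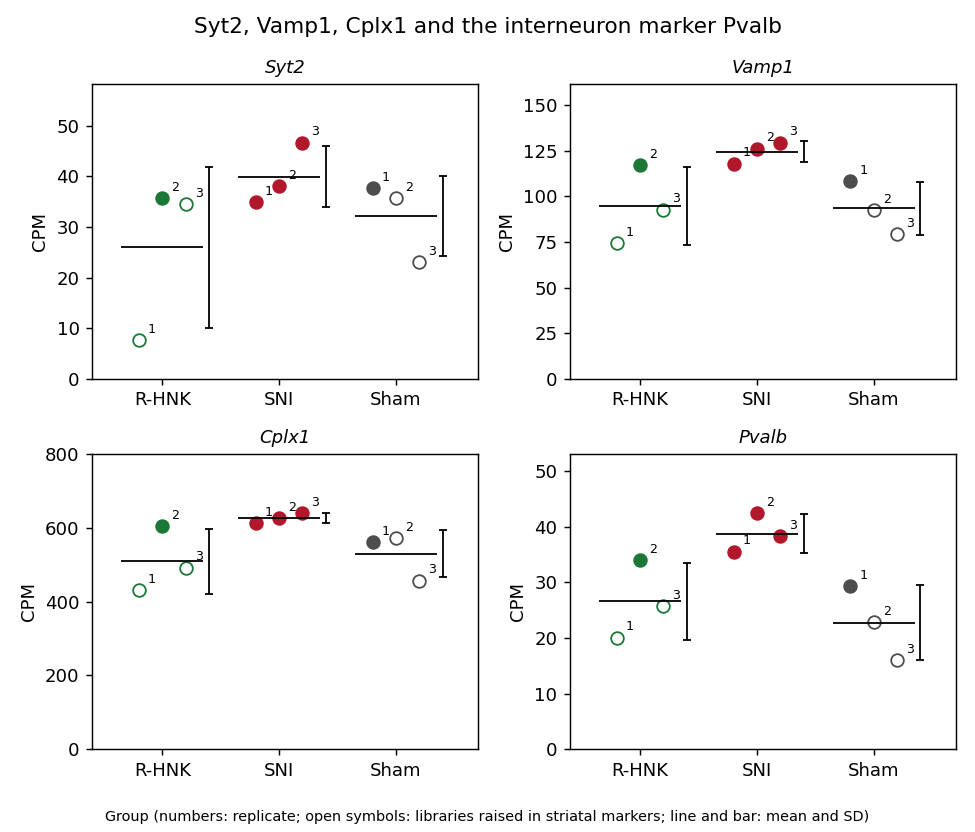
CPM of Syt2, Vamp1, Cplx1 and Pvalb in each library by group, with the mean (line) and SD (bar) of 3 mice and open symbols for libraries raised in striatal markers. Syt2 is at 7.64 CPM in R-HNK 1 and at 23.0 to 46.7 CPM in the other 8 libraries, while Pvalb is lowest in Sham 3.

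Other genes of release and recycling, 99 of 101 listed, stood in 5 lists chosen by function. Between SNI and Sham mice 0 were called higher and 1 lower, where 1.07% of all genes were called in either direction. The 1 gene was Ston2, an endocytic adaptor, with 15.9, 14.9 and 14.8 CPM in SNI mice and 19.2, 23.3 and 21.9 CPM in Sham mice (log2 fold change -0.50, edgeR adjusted p = 0.0498). This call was lost with relative log expression scaling, the replicate block, the 2 groups alone, the striatal covariate (-0.29), without the 4 libraries (-0.33), and when Sham 2 or 3, R-HNK 1 or any SNI library was left out. Over all alternatives the log2 fold change ran from -0.56 to -0.29 and the adjusted p from 0.00241 to 0.635. The nearest others were Sncb, beta-synuclein (0.33, edgeR adjusted p = 0.0579), and Syt13 (0.36, 0.0631). The median of the 99 was 0.087, with 0.13 in 24 SNARE core and chaperone genes, 0.10 in 22 endocytosis genes, 0.052 in 16 calcium sensor and priming genes, 0.045 in 23 vesicle membrane and Rab cycle genes and 0.023 in 14 active zone genes. In R-HNK against SNI mice 0 of 99 were called, where 0.119% of all genes were, and the median was -0.048. The smallest p were those of Syt10, a synaptotagmin of secretion (0.72, edgeR adjusted p = 0.359), Rims4 (-0.25) and Stxbp2 (0.33). In R-HNK against Sham mice 0 of 99 were called, where 0.00459% of all genes were. The median was 0.027, and the smallest p were those of Syt16, Atp6v1g2 and Syt13.

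Several release genes overlap others on the opposite strand, and whether reads were counted by strand is not stated. Such pairs include Syn1 with Araf, Syn2 with Timp4, Syn3 with Timp3, Rab3a with Mpv17l2, Unc13a with Colgalt1 and Doc2a with Ino80e, so reads of one may be counted for the other. Bsn overlaps Gm47303 on its own strand, which counting by strand would not separate. RNA levels do not measure vesicles, protein or release.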

How the data were processed

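The authors' deposited table held 1 value per row and mouse, with a gene symbol for each row. In it 107 symbols stood on more than 1 row, and such rows were kept apart. Its values are expected counts (estimated read counts per gene), deposited as whole numbers and not normalized, so rounding changed none. Per the submitters' processing notes, HISAT2 2.0.5, featureCounts 1.5.0-p3 and the mm10 build were used. The name of the table gives StringTie instead of featureCounts. Strand and pair settings of the counting are not given in the sources used here.

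Genes were filtered by group with filterByExpr (21765 kept, 99.96% of counts), scaled by TMM and fitted over all 9 libraries with the robust quasi-likelihood model of edgeR 4.0.16 (limma 3.58.1, R 4.3.3), at a Benjamini-Hochberg adjusted p under 0.05 over all genes. SE is the log2 fold change over the root of the F statistic. CPM use TMM-scaled totals. CPM per kilobase divides by exon length (GENCODE M21, GRCm38). Totals of 53624337 to 73586375 counts give every release gene at least 566 reads per library. The common biological coefficient of variation was 0.203. None of the 9 pairs of libraries within a group agreed within sampling noise (chi-square per degree of freedom 15.0 to 44.6). The p-values measure the spread between the deposited samples of a group.

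Alternatives were relative log expression (RLE) scaling, no filter, DESeq2 1.42.0, a replicate block, a fit of the 2 compared groups only, and omission of each library. The striatal covariate (mean log2 CPM of 15 markers) and leaving out the 4 libraries with Drd2 above 5 CPM were added after seeing the data, as was scaling by library totals alone (TMM factors ran from 0.996 to 1.02 in R-HNK, 0.979 to 0.989 in SNI and 0.998 to 1.03 in Sham libraries). The 29 members and all gene lists were chosen with earlier results of these data known. By rule, each comparison names the 4 members with the smallest p in the direction of most members, 2 in the other direction and the most abundant member per length of each role, and from the other lists the genes called or the 3 with the smallest p. Vamp7 was not analysed here, and Cplx4 fell below the filter. No other columns were in the table. Splicing was not studied.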

Additional observations from a re-analysis of the deposited data

How the results depend on the processing

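No release gene was called in R-HNK against SNI or R-HNK against Sham mice under any alternative run. In SNI against Sham mice DESeq2 called 6 (edgeR 0), leaving out 1 library gave 0 to 7, and the other alternatives gave 0. For any difference among groups DESeq2 called 3, beside 4.07% of the genes that it gave an adjusted p. Leaving out 1 library gave 0 to 5 (5 without Sham 1, where 2.34% of all genes were called). The highest counts came without Sham replicate 1, a fit that keeps Sham 2 and 3, both raised in striatal markers. Leaving out 1 library, the median fold change ranged from 0.12 to 0.26 in SNI against Sham, -0.14 to -0.089 in R-HNK against SNI and 0.00049 (without Sham replicate 3) to 0.15 (without Sham replicate 1) in R-HNK against Sham mice. Genes without overlap then numbered 13 to 24 in SNI against Sham (24 without Sham 1, where 39.1% of all genes did not overlap, and 22 without SNI 1, where 33.2% did not), 9 to 17 in R-HNK against SNI (17 without SNI 1, beside 25.8%, and 16 without R-HNK 2, beside 31.6%) and 0 to 13 in R-HNK against Sham mice (13 without Sham 1, beside 24.9%), and paralog ratios without overlap 6 to 11 (10 without Sham 1 or R-HNK 2, 11 without R-HNK 3). Fewer mice overlap less by construction. With scaling by library totals alone, 5 genes and not 9 were without overlap in R-HNK against SNI mice, and the medians were 0.13 (SNI against Sham), -0.074 (R-HNK against SNI) and 0.047 (R-HNK against Sham). The median of SNI against Sham was 0.051 with the striatal covariate and 0.069 if the 4 raised libraries were left out, which made that of R-HNK against Sham -0.035. Of the other release and recycling genes, 1 of 99 was called in SNI against Sham mice, where 1.07% of all genes were. The count was 0 with RLE scaling, the block, the 2 groups alone or the covariate, and 4 without a filter, where 1.06% of all genes were called. DESeq2 called 15, beside 6.76% of the genes that it gave an adjusted p. Leaving out 1 library gave 0 to 22 (22 without Sham 1, where 5.19% of all genes were called). In R-HNK against Sham mice the count was 0 to 1. The cause was not tested.

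Of the genes that each fit's own filter kept, those called in SNI against Sham mice numbered 233, and 370 without a filter, 1185 with DESeq2, 86 with the covariate, 86 without the 4 libraries and 60 to 1170 without 1 library. In R-HNK against SNI the count of 26 was 140 with DESeq2, 16 with the block, 53 with the 2 groups alone and 7 to 56 without 1 library. In R-HNK against Sham the count of 1 was 10 with DESeq2, 2 with the block, 25 without the 4 libraries and 1 to 11 without 1 library.

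With the covariate 6 (SNI against Sham), 8 (R-HNK against SNI) and 6 (R-HNK against Sham) of the 29 fold changes turned sign, and without the 4 libraries 6 (SNI against Sham), 6 (R-HNK against SNI) and 11 (R-HNK against Sham). Those of the genes named by rule were as follows. Scaled by library totals alone, Bsn was 0.027 in R-HNK against SNI mice. With the covariate Bsn was -0.018 (SNI against Sham) and 0.048 (R-HNK against SNI), and in R-HNK against Sham Doc2b was 0.015 and Syt1 -0.010. Without the 4 libraries Bsn was -0.12 (SNI against Sham), Syn3 -0.039, Doc2b -0.031 and Syt1 0.0020 (R-HNK against SNI), and Slc17a7 -0.040, Syp -0.035 and Bsn -0.24 (R-HNK against Sham). Leaving out 1 library, Bsn in R-HNK against SNI ranged from -0.059 to 0.041, and in R-HNK against Sham Snap25 from -0.031 to 0.24 and Syt1 from -0.046 to 0.18.

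The replicate numbers were shared between groups, and the labels do not say whether they pair the samples. Over 9 same-numbered pairs the correlation of deviations from the group means ran from -0.104 to 0.0917, and 0 exceeded 0.1. With 3 samples a group these correlations do not settle whether the samples were paired. With the replicate number as a block the median fold change of the release genes was 0.17 (SNI against Sham), -0.11 (R-HNK against SNI) and 0.061 (R-HNK against Sham), and 0 were called.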

Other observations

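The balance between related release genes was compared as the log2 ratio of their CPM in each library, for 9 pairs and 3 comparisons, 27 exact two-sided permutation tests in all. With 3 mice against 3 the smallest p is 0.1, and no Benjamini-Hochberg adjusted p was below 0.45. The groups did not overlap in 6 of the 27, each with an exact p of 0.1 in the permutation test. That p is also the share of tests without overlap if the groups did not differ. The 27 tests share mice, and Vamp1 to Vamp2 and Slc17a6 to Slc17a7 each enter the 6 in more than 1 comparison. Vamp1 stood higher relative to Vamp2 in SNI than in Sham mice (-3.19 ± 0.0432 in SNI and -3.51 ± 0.171 in Sham, mean log2 ratio ± SD, a difference of 0.31) and lower in R-HNK than in SNI mice (difference -0.33). Slc17a6 stood lower relative to Slc17a7 in SNI and in R-HNK mice than in Sham mice (differences of -0.56 and -0.46). In SNI against Sham mice Slc17a6 alone had -0.24, with overlap, and Slc17a7 had 0.31. The summed thalamic markers were 42.1 to 49.7 CPM in R-HNK mice, 30.5 to 41.0 CPM in SNI mice and 63.6 to 78.7 CPM in Sham mice. With the striatal covariate the thalamic median of SNI against Sham was 0.010 and Slc17a6 had -0.33. The part of the thalamic markers in these ratios was not tested. Doc2b stood lower relative to Doc2a (-1.31), and Syn2 relative to Syn1 (-0.17), in SNI than in Sham mice. As plain ratios, Doc2b to Doc2a was 0.319, 0.240 and 0.340 in SNI mice 1, 2 and 3 and 0.354, 0.964 and 1.16 in Sham mice, and Syn2 to Syn1 was 0.717, 0.698 and 0.666 in SNI mice and 0.735, 0.770 and 0.841 in Sham mice. In both, Sham 1 lay next to the SNI mice, and Sham 2 and 3, raised in striatal markers, stood apart in Doc2b to Doc2a. The ratios of Syt2 to Syt1, Cplx1 to Cplx2, Unc13b to Unc13a, Rims2 to Rims1 and Sv2b to Sv2a overlapped between groups in every comparison.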
